A study of Homo sapiens with 2 samples.

Results

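The genes described are those of the human globins and of AHSP, the chaperone of free alpha-globin. Members were all array probes whose gene symbols lie wholly within the set HBA1, HBA2, HBB, HBD, HBE1, HBG1, HBG2, HBZ, HBM and AHSP. This gave 11 probes for 10 genes, of 28869 probes in all. HBG1 and HBG2 share 2 probes, HBA1 and HBA2 share 2, HBZ has 2 of its own, and the other 5 genes have 1 each. The rule uses gene symbols and no measured value, although the set was drawn up with earlier results of these data known.

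Expression was measured in K562, an established human leukaemia line driven by the fused kinase BCR-ABL1. The cells of both samples were treated with 2 µM imatinib, an inhibitor of that kinase, for 6 h in medium with 10% serum. One culture had erythropoietin (EPO), a hormone needed for red cell production, in its medium. The other carries no mention of EPO in its label, and the labels' growth protocol, which names growth with and without EPO, puts it in the group without. The dose and duration of EPO are unknown. Each culture gave 1 whole-transcript Affymetrix Gene ST array, so there is no replicate, no test and no p-value. K562 is a cell line in culture, and cells without imatinib were not analysed here.

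Haemoglobin is a tetramer of a pair of alpha-type and a pair of beta-type chains, each of which holds haem. The alpha-type genes lie together on chromosome 16 and the beta-type genes together on chromosome 11, and in both clusters embryonic genes give way to fetal or adult genes during development. AHSP, which also lies on chromosome 16, binds free alpha-globin and keeps it from precipitating until a beta-type partner is found. K562 cells are known for making embryonic and fetal rather than adult haemoglobin.

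The deposited values are deviations of each probe from a baseline that the sources used here do not state, and they are read as log2. A value of 0 means the level of that baseline, so neither the abundance of a globin nor the order of the globins by level can be read from them. The presence of erythroid transcripts could not be checked for the same reason. The array with EPO varied less around the baseline than the array without EPO, with standard deviations over all probes of 0.134 and 0.431. The median probe stood at -0.0089 on the first and 0.052 on the second. A difference is always the value with EPO minus the value without EPO, and a probe was called at 2-fold, a difference of 1 on the log2 scale.

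No member reached 2-fold in either direction. On the values as deposited, 0 of 11 probes were 2-fold or more higher with EPO, where 4.54% of all probes were, and 0 of 11 were 2-fold or more lower, where 2.28% were. For 11 probes these counts are near the background. The member differences ran from -0.29 to 0.63, with a median of -0.00076, beside a median of -0.081 over all probes. AHSP stood at the upper end and HBM at the lower end, and the other 9 probes lay between -0.11 and 0.11.

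**Figure D1:**
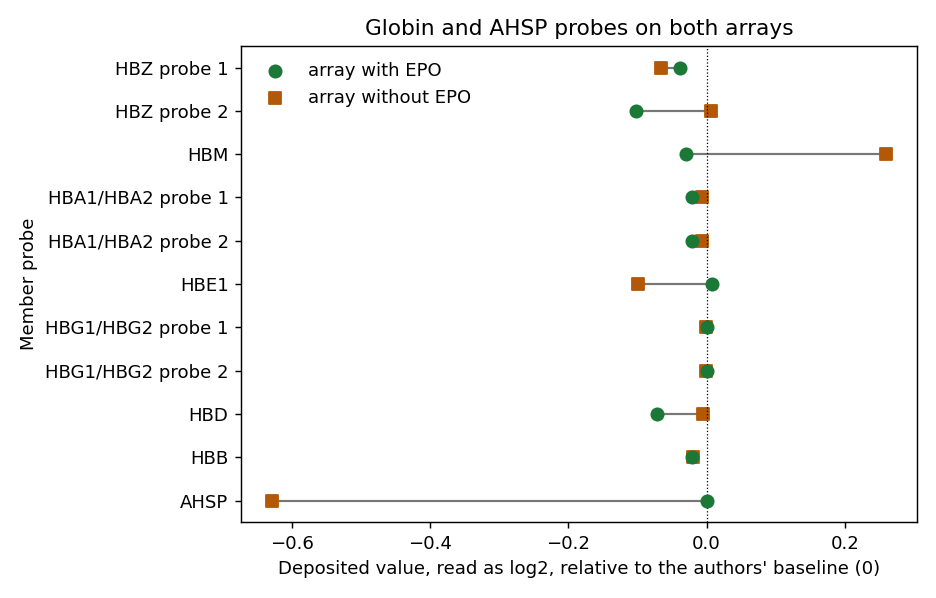
Deposited values (x axis, read as log2, 0 is the authors' baseline) of the 11 member probes (y axis) on the array with EPO (circles) and the array without EPO (squares), with a line joining the pair. AHSP has the longest line, from 0.00054 with EPO to -0.63 without EPO, and HBM the next, from -0.029 to 0.26.

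The embryonic alpha-type gene HBZ, which encodes zeta-globin, was read by 2 probes that differed in sign. The first stood at -0.038 with EPO and -0.066 without EPO, a difference of 0.028. The second stood at -0.10 with EPO and 0.0058 without EPO, a difference of -0.11. These differences lay 0.14 apart. Among the 685 genes with several probes of their own, the median gap was 0.18, and 56.4% had a larger gap than HBZ.

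HBM, an alpha-type gene of the same cluster that encodes mu-globin, had the lowest difference of the members. It stood at -0.029 with EPO and 0.26 without EPO, a difference of -0.29 (1.22-fold lower with EPO). This was the member with the highest value on the array without EPO. Of all probes, 50.4% had a difference of smaller size.

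The adult alpha-globin genes HBA1 and HBA2 encode the same protein, and their 2 shared probes gave nearly the same values. With EPO both stood at -0.021, and without EPO both stood at -0.0073. The differences were -0.0135 and -0.0134, and 3.53% and 3.50% of all probes had a smaller one. These probes cannot tell HBA1 from HBA2, and they do not count as separate observations.

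Among the beta-type genes, HBE1, which encodes the embryonic epsilon-globin, stood at 0.0081 with EPO and -0.099 without EPO. Its difference of 0.11 was the highest of the globin probes, at 1.08-fold. Of all probes, 23.0% had a difference of smaller size.

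The fetal gamma-globin genes HBG1 and HBG2 share 2 probes, and both stood almost at the baseline on each array. The first read 0.00045 with EPO and -0.00045 without EPO, and the second 0.00037 and -0.00037. Their differences were 0.00089 and 0.00074, and 0.215% and 0.173% of all probes had a smaller one. Each pair of values mirrored the other around 0 within 1e-05, which held for 2 of the 11 members and for 631 probes in all (2.19%). Changes of HBG1 and HBG2 in opposite directions could cancel in probes that read both.

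The adult beta-type genes were also close to 0 on both arrays. HBD, which encodes delta-globin, stood at -0.072 with EPO and -0.0052 without EPO, a difference of -0.067. HBB, which encodes the beta chain of the main adult haemoglobin, stood at -0.021 with EPO and -0.020 without EPO. Its difference was -0.00076, and 0.180% of all probes had a smaller one.

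Seen by type, the 5 alpha-type probes had a median difference of -0.014, with 1 above and 4 below 0. The 5 beta-type probes had a median of 0.00074, with 3 above and 2 below 0. These signs rest on the scaling between the arrays, given below, and were not read further.

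AHSP had the largest difference of the members. It stood at 0.00054 with EPO and at -0.63 without EPO, so the array with EPO read the baseline and the array without EPO lay below it. The difference of 0.63 is 1.55-fold higher with EPO, and 87.4% of all probes had a lower difference. That share depends on the genes it is set against. It was 63.2% among 247 genes of cellular machinery and 99.1% among 460 genes of largely silent families. The lowest globin probe without EPO was HBE1, at -0.099. AHSP is read by 1 probe, so no second probe bears on the value.

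The AHSP difference exceeded that of each of the 10 globin probes, by 0.52 to 0.92 on the log2 scale, with a median of 0.64 (1.55-fold). These gaps are differences within the same pair of arrays, so a shift of a whole array by a constant cancels in them. A difference in spread does not cancel, and the standard deviations were 0.134 with EPO and 0.431 without EPO. The gaps show that the AHSP and globin readings moved unequally between the arrays, with no replicate to set against the gap.

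**Figure D2:**
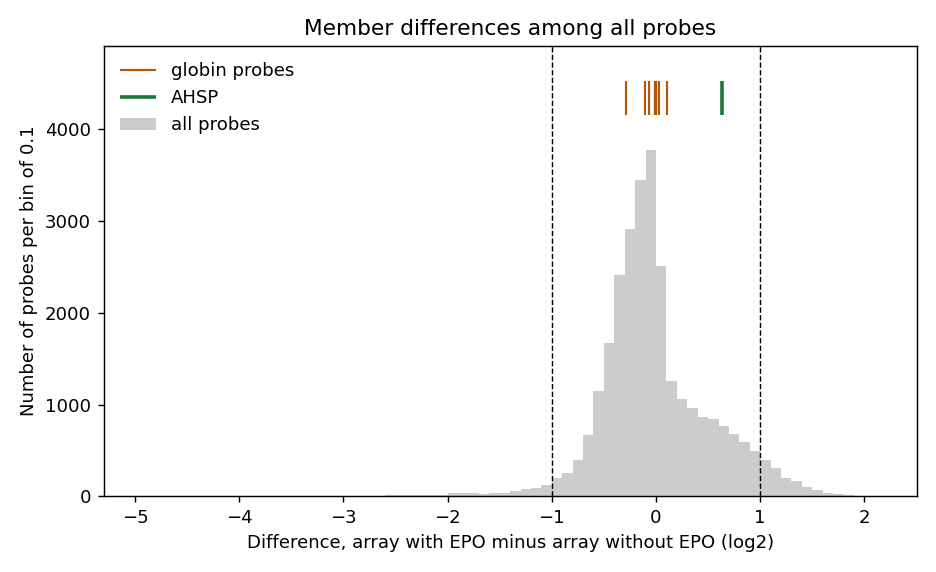
Number of probes (y axis) by difference between the arrays in bins of 0.1 (x axis, log2, array with EPO minus array without EPO) for all 28869 probes in grey, with the 10 globin probes as thin marks and AHSP as a thick mark above. Dashed lines stand at 2-fold, and the globin marks gather between -0.29 and 0.11 while AHSP stands apart at 0.63.

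Small differences were frequent among the members. Differences of at most 0.02 in size were seen in 5 of 11 members, against 4.98% of all probes, and differences of at most 0.1 in 7 of 11, against 21.8%. These limits were set after the values were seen. The 5 probes come from 3 sources, since HBA1/HBA2 and HBG1/HBG2 give a pair each and HBB is the fifth. On the array with EPO, all 11 members lay within 0.11 of the baseline, as did 68.9% of all probes. On the array without EPO, 9 of 11 did, against 31.9% of all probes, and HBM and AHSP did not. The limit of 0.11 lies just above the size of HBZ probe 2 with EPO (-0.10) and of HBE1 without EPO (-0.099). The member counts therefore follow from its choice, and they count the shared HBA1/HBA2 and HBG1/HBG2 probes separately. Whether the globin probes were bright enough to lose range was not tested, as intensities were not analysed here.

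The direction of the members depended on how the arrays were scaled to each other. As deposited, 5 probes lay above 0 and 6 below. With the median of all probes subtracted from each array, 8 lay above and 3 below. With the median difference of 247 genes of cellular machinery (0.46) subtracted, AHSP stayed above 0, at 0.17, and the 10 globin probes lay below. With the median of 460 genes of largely silent families (-0.32) subtracted, all 11 lay above 0, with AHSP at 0.95 and HBM at 0.036. AHSP was thus above 0 under each of these 4 scalings, and none took a member past 2-fold. Over all probes the same scalings moved the split of called probes from 1310 higher and 659 lower as deposited to 173 and 2763 with the machinery median and to 3274 and 361 with the silent median.

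**Figure D3:**
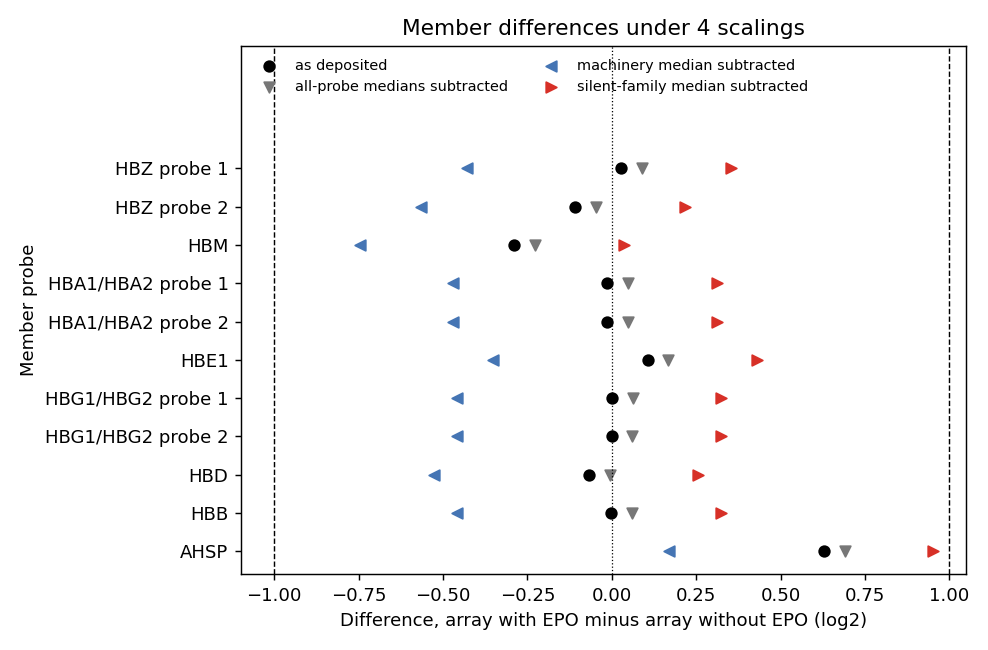
Difference of each of the 11 member probes (y axis) between the arrays (x axis, log2, array with EPO minus array without EPO) as deposited and with 3 other scalings, each a symbol. Every scaling moves all probes by the same amount, AHSP stays above 0 throughout (0.17 to 0.95), and no symbol crosses the dashed 2-fold lines.

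The globins were then set beside genes that regulate them, build haem or handle haemoglobin. In these lists probes of a gene were averaged, and the share of all 18377 genes called was 6.19% higher and 0.898% lower. Beyond the members, 5 further globins were measured, with a median of -0.37 and all 5 below 0 as deposited. HBQ1, the theta-globin gene at the end of the alpha cluster, stood at -0.17 with EPO and 0.26 without EPO, a difference of -0.43. This was lower than that of any member. The neuronal globin NGB and the cytoplasmic globin CYGB stood at -0.38 and -0.37. With the silent median subtracted, the median of these 5 was -0.045.

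Of 36 measured regulators of globin genes, 2 passed 2-fold upwards with EPO and 1 downwards, and the median was 0.36. The higher genes were LIN28B, an RNA-binding protein of the fetal programme, at 1.22 and the histone demethylase KDM1A, a corepressor of fetal globin, at 1.06. The lower gene was ATF4, the stress factor downstream of the haem-regulated kinase, at -2.06. Another 4 regulators within 2-fold are given here, picked with their values in view. BCL11A, a repressor of fetal globin, stood at -0.31, ZBTB7A, another, at 0.040, KLF1, the activator of adult beta-globin, at 0.24 and GATA1, the main erythroid factor, at 0.25. With the machinery median subtracted, the list median turned to -0.10, neither LIN28B nor KDM1A passed 2-fold, and 2 regulators lay 2-fold or more lower.

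Of 19 measured genes of haem synthesis and its control, 4 passed 2-fold upwards with EPO and 0 downwards, with a median of 0.52. These were the mitochondrial transporter ABCB10 at 1.37, the haem enzyme CPOX at 1.29, the mitochondrial unfoldase CLPX at 1.27 and FECH, which inserts iron into haem, at 1.15. ALAS2, the erythroid enzyme of the first step, stood at 0.84. It was named after its value was seen. After subtraction of the machinery median, none of the 4 passed 2-fold and the list median was 0.063. The genes of this list ran from -0.46 to 1.37, a range that takes in all 10 globin probes, whose median was -0.0071.

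Of 22 measured genes of haemoglobin folding, redox and disposal, 4 passed 2-fold upwards with EPO and 0 downwards, with a median of 0.36. They were CYB5A, a cytochrome b5 that takes part in reducing methaemoglobin, at 1.45, the glycolytic enzyme PGK1 at 1.19, the ferritin receptor NCOA4 at 1.02 and BPGM, which makes the allosteric effector of haemoglobin, at 1.01. With the machinery median subtracted, none of the 4 passed 2-fold, 1 gene of the list was past 2-fold lower, and the list median turned to -0.10. Of 18 measured erythroid membrane and surface genes, 5 passed 2-fold upwards and 0 downwards, with a median of 0.73. These were XK, SLC4A1, RHAG, RHD and TFRC, the transferrin receptor, between 1.02 and 1.25. After subtraction of the machinery median, none of the 5 passed 2-fold and the list median was 0.27.

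**Figure D4:**
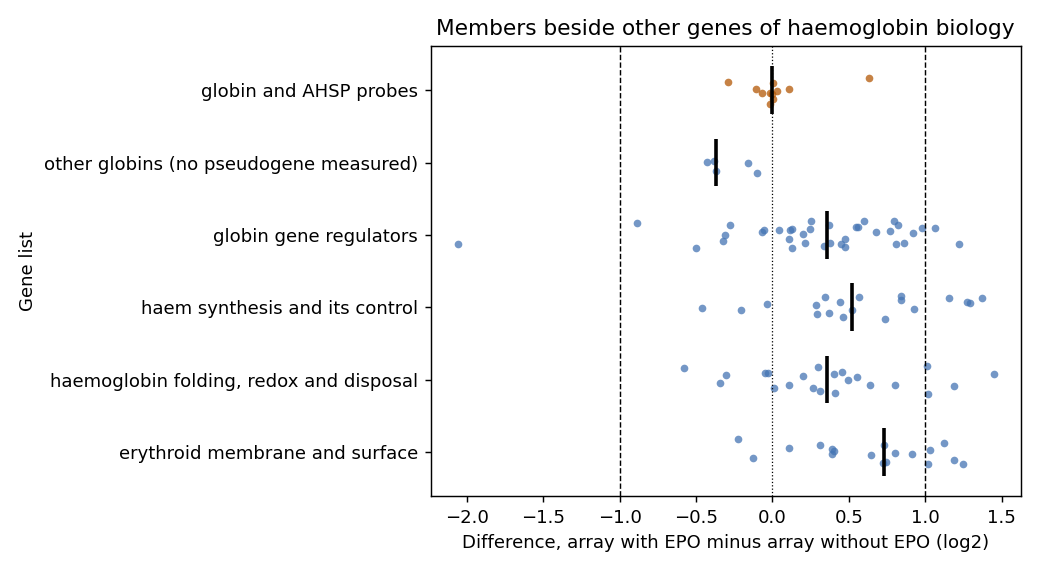
Difference of each probe or gene (points) between the arrays (x axis, log2, array with EPO minus array without EPO) for the 11 member probes and for 5 lists of related genes (y axis), with medians as black bars and 2-fold as dashed lines. The member median is -0.00076, and the list medians run from -0.37 for other globins to 0.73 for erythroid membrane genes.

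The genes most like AHSP were sought among 100 protein-coding genes of these lists, by distance in the pair of array values. CAT, the catalase gene, was nearest, at 0.0084 with EPO and -0.63 without EPO (distance 0.0080). EPB41, a protein of the red cell membrane skeleton, followed at 0.024 and -0.62 (distance 0.025). RHCE, a gene of the Rh blood group, was at 0.034 and -0.70 (distance 0.077). With 2 arrays such likeness is common, since 264 of all 18377 genes lay within the distance of RHCE.

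Markers of cell types were given the same summary, on the values as deposited only. The median was -0.047 over all genes and -0.32 over the silent families, the latter below each marker median given here. The 6 erythroid markers measured had a median of 0.25, but 2 of them, HBE1 and HBZ, are members and the other 4, TFRC, EPOR (0.31), GATA1 and KLF1, stand in the lists above. Megakaryocyte markers had a median of -0.13 over 7 genes, with 0 past 2-fold and GP9, PF4 and PPBP at -0.37, -0.20 and -0.18. Granulocyte and monocyte markers had a median of -0.16 over 8 genes, with LYZ at 1.05, ELANE at -0.59 and MPO at -0.35. Lymphoid markers had a median of -0.23 over 5 genes, with CD3D at -0.67, CD2 at -0.45 and CD79A at -0.23. Stromal and epithelial markers had a median of -0.20 over 6 genes, with EPCAM at 1.25, COL1A1 at -0.57 and VIM at -0.54. Their part in the member values was not tested, and a change of RNA per cell cannot be told apart from a change in the mix of cells.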

How the data were processed

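The deposited table holds values of 28869 probes on 2 arrays, 1 with EPO and 1 without EPO. Per the labels' protocols, total RNA was hybridised as biotin-labelled cDNA to Gene 1.0 ST arrays. The authors' values were used as deposited and read as log2. Their log base, normalization, software and centring baseline were not given in the sources used here. Precision is limited by the number of arrays, 1 per group.

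Probes were named through the platform annotation. Of 19310 probes with 1 symbol, 19279 were matched by Entrez ID to RefSeq (GRCh38.p14) and took its current symbol, 1752 probes carried several symbols and 7807 were not listed. Member probes were taken whole, and other genes from probes with 1 symbol, averaged per gene (18377 genes).

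The result is the value with EPO minus the value without EPO, called at 2-fold. No test was possible, and no filter on dim probes could be set on centred values. All member probes are given, and of each other list the 3 genes of largest difference and every gene past 2-fold. The members and lists were chosen with earlier results of these data known. Of the lists, the measured genes numbered 5 other globins, 36 regulators, 19 of haem synthesis, 22 of folding and disposal and 18 of the erythroid membrane. Alternatives were other fold thresholds (1.5 and 3), other scalings and other rules for probes. Machinery and silent classes were set by symbol. The calls and list summaries were tested on simulated data. Python 3.11.15, NumPy 2.4.6, pandas 2.3.3 and matplotlib 3.10.9 were used.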

Additional observations from a re-analysis of the deposited data

How the results depend on the processing

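With 1 array per group, a value was taken as moved when it shifted by over 0.1 on the log2 scale or changed sign. The median of the member probes was -0.00076 as deposited and 0.060 with the medians of all probes subtracted. It was -0.46 with the machinery median and 0.32 with the silent median. It was 0.055 (unitless) when the median of all probes was subtracted from each array and the remainder divided by the array's standard deviation. With the machinery median subtracted, the list medians were -0.83 for other globins, -0.10 for regulators, 0.063 for haem synthesis, -0.10 for folding and disposal and 0.27 for membrane genes. With the silent median subtracted they were -0.045, 0.68, 0.85, 0.68 and 1.05, the last of which is past 2-fold. These shifts are the subtracted constants themselves. With the machinery median, 0 genes were called higher in any of the 5 lists, and 2 regulators and 1 gene of folding and disposal were called lower. With the silent median, 10 regulators, 8 haem synthesis genes, 5 genes of folding and disposal and 10 membrane genes were called higher. At a threshold of 1.5-fold, 1 member (AHSP) was higher and 0 lower, and 3956 of all probes were higher and 2303 lower. At 3-fold, 88 were higher and 247 lower. With the machinery median subtracted, 173 of all probes were 2-fold higher and 2763 lower, and with the silent median 3274 and 361. Averaging the probes of a gene or leaving out shared probes moved the member median by less than 0.1, and so did the mean and other probe rules for the lists. No probe was shared between a member and a gene outside the set, so that alternative gave no value. No paired analysis was possible because each group has 1 array. Brightness over background was not analysed here.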

Other observations

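The genes that flank the beta-globin cluster are olfactory receptors, which most tissues other than the nose keep silent. Of 460 genes of silent families, 421 had a difference below 0 and 39 above 0. On the HBB side of the cluster, 5 of the 6 nearest measured receptors lay below 0, from OR51V1 at -0.90 to OR52E2 at -0.58, and OR52A1 stood at 0.028. On the HBE1 side, where the enhancer of the cluster known as the locus control region lies, the 3 nearest were above 0. OR51B4 stood at 0.031 with EPO and -0.56 without EPO, a difference of 0.60. OR51B2 stood at -0.020 and -0.56, a difference of 0.54. OR51B5 stood at 0.0052 and -1.36, a difference of 1.36, and it was the 1 gene of the 460 that was at least 2-fold higher with EPO. These 3 lay above 98.9%, 98.3% and 99.8% of the silent families. The next 3 receptors lay below 0, with OR51B6 at -0.50, OR51M1 at -0.096 and OR51Q1 at -0.17. They lay above 30.4%, 82.4% and 71.5% of the silent families. On the HBB side OR52A1 lay above 93.5% of them, and the other 5 above 3.7% to 22.4%. The embryonic gene HBE1, the member nearest to OR51B4, OR51B2 and OR51B5, differed by 0.11. The receptors were picked after their values were seen, their order is that of RefSeq (GRCh38.p14), and whether their probes read transcripts of the globin locus was not tested.

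Around the alpha-globin cluster, differences had both signs. NPRL3, whose introns hold the enhancers of the alpha cluster, stood at 0.019 with EPO and -0.68 without EPO, a difference of 0.69. Its neighbours MPG and RHBDF1, farther from the cluster, both stood at -0.39. SNRNP25 and POLR3K, farther still, stood at 0.16 and 0.33. On the other side LUC7L stood at 0.13, FAM234A at 0.56 and AXIN1 at 0.57. Between FAM234A and AXIN1, RGS11 stood at -0.077 and ARHGDIG and PDIA2 both at -0.24. All these differences are as deposited and depend on the scaling between the arrays. The member probes of the cluster lay between -0.29 and 0.028, and HBQ1, the globin gene at its end, stood lower, at -0.43.

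The genes on each side of AHSP were taken by order on chromosome 16, with no limit on distance. They need not lie near AHSP, and an effect of position was not tested. The next 6 measured protein-coding genes after AHSP all lay above 0, from MYLK3 at 0.70 to ZNF267 at 1.88. VPS35 stood at 1.58 and SHCBP1 at 1.32. Of the 6 before AHSP, 5 lay below 0, from SLC5A2 at -0.053 to TGFB1I1 at -0.69, and RUSF1 stood at 0.21. AHSP itself, at 0.63, lay below each of the 6 after it and above each of the 6 before it. These genes too were looked at after their values were seen, and with the machinery median of 0.46 subtracted the 6 after AHSP stay above 0. The signs before AHSP depend on the scaling. With the silent median of -0.32 subtracted, SLC5A2, COX6A2 (-0.060 as deposited) and ZNF843 (-0.24) also lie above 0. ARMC5 (-0.37) and TGFB1I1 stay below 0.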
